A study of Homo sapiens with 18 samples.

Results

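The transcripts described here belong to the integrated stress response around ATF4: ATF4 itself, ATF3, DDIT3, DDIT4, TRIB3, CHAC1, ASNS, SESN2, PPP1R15A and CEBPB. These 10 genes were chosen by symbol from a table of 21111 TempO-Seq probes covering 19289 gene symbols, and they hold 11 probes, since DDIT3 has 2. The values were read in TNBC cells after silencing of ASAP1, an Arf GTPase-activating protein, in the part of the study that asked which genes ASAP1 regulates. No member probe passed an adjusted p of 0.05 for siASAP1 against siCtrl in any of the 3 cell lines or over all 18 libraries. At an unadjusted p under 0.05, CEBPB was higher after siASAP1 in BT549 and Hs578T cells, PPP1R15A was higher in BT549 cells, the abundant DDIT3 probe was higher in SUM149PT cells, and ASNS was lower in BT549 cells, the last no longer so with any of 4 of its 6 libraries left out. Without BT549 siASAP1 replicate 1, CEBPB and PPP1R15A passed the adjusted threshold in BT549 cells, as did 5.63% of all probes tested. Without a siCtrl library that stood apart, DDIT3 passed it in SUM149PT cells, as did 1.08% of all probes.

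The integrated stress response starts when kinases that sense amino acid shortage, unfolded protein, viral RNA or lack of heme phosphorylate the translation factor eIF2. General translation then slows, whereas the upstream reading frames of the ATF4 mRNA let its main frame be translated more. ATF4, a bZIP transcription factor, binds with partners such as C/EBP proteins to composite sites in genes for amino acid supply, feedback control and cell death. Its own activity is set largely by translation, so an mRNA probe for ATF4 reads only part of that control.

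The libraries came from 3 established TNBC cell lines, mesenchymal-like BT549 and Hs578T and basal-like SUM149PT. Cells were transfected with 50 nM of a pool of siRNAs against ASAP1 (siASAP1) or with siCtrl, for which the study used a pool of kinase siRNAs, and were lysed 72 h later. Each of the 6 groups of cell line and siRNA held 3 libraries, which the study describes as biological replicates. In TempO-Seq, a pair of detector oligonucleotides anneals next to each other on a target RNA, the pair is ligated, and the ligated product is amplified and sequenced. The probe sequences were not used here, so the exon that each probe reads was not determined, and levels are compared only within a probe, never between genes.

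The deposited values were undone to normalized counts, that is, reads divided by a size factor of the library. A library held between 4633629 and 12488575 reads. The library labelled SUM149PT siCtrl replicate 2 stood apart from its group, with a Pearson r of 0.773 with the mean of the other 2 libraries, and SUM149PT siASAP1 replicate 2 (0.846) and BT549 siASAP1 replicate 1 (0.876) followed. Epithelial and basal markers (7 probes of CDH1, EPCAM and keratins) summed to between 57.4 and 495 normalized counts in BT549 and Hs578T libraries and to between 29999 and 57105 in SUM149PT libraries. Leukocyte markers reached at most 8 reads in any library. The 6 probes of ESR1, PGR and ERBB2 summed to between 26.4 and 280.5 normalized counts.

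The silencing was read by the ASAP1 probe. In BT549 cells it gave 1107, 966 and 944 normalized counts after siCtrl and 367, 729.7 and 783 after siASAP1. In Hs578T cells the values were 1641, 1414 and 2697 after siCtrl and 782, 825 and 1261 after siASAP1. SUM149PT cells gave 1087, 189 and 1314 after siCtrl and 282, 468 and 184 after siASAP1. All siASAP1 libraries were lower than all siCtrl libraries in BT549 and Hs578T cells, whereas the library labelled SUM149PT siCtrl replicate 2 was as low as the siASAP1 libraries, against its label. Results for SUM149PT cells were therefore also computed without it. Over all 18 libraries, with that library kept under its siCtrl label, the Log2 FC of ASAP1 was -0.96 (SE 0.31, adjusted p = 0.13 in limma). The value of ASAP1 without it is not given here.

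Of the 10 members, 4 carry in the 250 bases before a RefSeq transcription start a sequence known from ATF4, C/EBP or CREB family binding. These stretches are shown as sequence only. The members were chosen as genes of the ATF4 response, so finding such a motif in them is not independent of that choice. All 10 genes had promoters in the RefSeq table of build GRCh38.p14, 17 in all. The first motif searched was TGATGNAA, the form of the C/EBP-ATF composite site, and the second was TGACGTCA, the cAMP response element, both on either strand. Each line gives 30 bases, 5′ to 3′ on the strand of the gene, with the match in capitals.
ASNS: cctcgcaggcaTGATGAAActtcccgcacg
CHAC1: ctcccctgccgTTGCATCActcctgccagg
ATF3: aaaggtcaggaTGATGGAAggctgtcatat
PPP1R15A: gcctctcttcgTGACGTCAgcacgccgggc
The ASNS stretch lies at chr7:97872458-97872487 on the minus strand, and its match begins 68 bases before the start. The CHAC1 stretch at chr15:40953251-40953280 holds the motif on the opposite strand, 209 bases before the start. Both stretches fall inside exons of their genes annotated in GENCODE release 29. The ATF3 stretch at chr1:212565205-212565234 lies 191 bases before the more upstream start of that gene, and the PPP1R15A stretch at chr19:48872352-48872381 lies 58 bases before the start, both on the plus strand and outside annotated exons. Among 35116 promoter windows of the same length, TGATGNAA was found in 3.14% and TGACGTCA in 1.65%. These shares are per window and per motif. The 4 of 10 members are genes with either motif in any of their windows, 17 in all, so that count cannot be set against these shares. No match in the windows of ATF4, DDIT3, DDIT4, TRIB3, SESN2 and CEBPB says only that these letters were not there.

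For a test, a probe needed a mean normalized count of at least 10 over the libraries fitted. This left 7 member probes in BT549, 8 in Hs578T, 7 in SUM149PT and 8 over all 18 libraries. The probes of ATF3, TRIB3 and SESN2 were below the limit in every fit, and DDIT3_1800, the weaker DDIT3 probe, was below it in BT549 and SUM149PT cells.

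ATF4 (chromosome 22, 39519695 to 39522685 on GRCh38, plus strand, with 4 annotated pseudogenes whose transcripts the probe might also read) codes for the central transcription factor. In BT549 cells its probe gave 548, 673 and 789 normalized counts after siCtrl and 652, 1262 and 1823 after siASAP1. The 2 highest libraries of the line were siASAP1 libraries, but the lowest siASAP1 library lay among the siCtrl libraries. Hs578T cells gave 470.0, 1092 and 576 after siCtrl and 916, 1068 and 1107 after siASAP1, and siCtrl replicate 2 lay among the siASAP1 libraries. SUM149PT cells gave 732, 276 and 611 after siCtrl and 601, 1473 and 972 after siASAP1, again with overlap. The Log2 FC of ATF4 was 0.79 (SE 0.43) for BT549, 0.62 (SE 0.34) for Hs578T and 0.93 (SE 0.53) for SUM149PT cells, with adjusted p-values between 0.59 and 0.92 in limma. Over 18 libraries the Log2 FC of ATF4 was 0.78 (SE 0.25), with an unadjusted p of 0.0054 and an adjusted p of 0.12 in limma. The 3 estimates differed by less than their SEs, and the test for a difference between them gave an unadjusted p of 0.89 in limma.

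CEBPB (chromosome 20, 50190734 to 50192689, plus strand, overlapped by the antisense gene CEBPB-AS1) codes for C/EBPβ, a bZIP partner of ATF4. In BT549 cells its probe gave 198, 98.1 and 73.0 normalized counts after siCtrl and 219, 543 and 839.5 after siASAP1. For Hs578T cells the values were 434, 599.7 and 559.6 after siCtrl and 899.7, 988 and 1048 after siASAP1. The siASAP1 libraries were all higher than the siCtrl libraries in both mesenchymal-like lines. In SUM149PT cells the values were 1472, 366 and 1520.2 after siCtrl and 654, 2651 and 859 after siASAP1, with the lowest value in the library labelled siCtrl replicate 2 and the highest in siASAP1 replicate 2, both of which stood apart. The Log2 FC of CEBPB was 2.03 (SE 0.57, adjusted p = 0.49 in limma) for BT549, 0.89 (SE 0.26, adjusted p = 0.91) for Hs578T and 0.29 (SE 0.73, adjusted p = 0.91) for SUM149PT cells. Without BT549 siASAP1 replicate 1, the value in BT549 cells was 2.57 with an adjusted p of 0.031, whereas without the library labelled SUM149PT siCtrl replicate 2 or siASAP1 replicate 2 the value in SUM149PT cells was -0.39 or -0.32.

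DDIT3 (chromosome 12, 57516588 to 57521737, minus strand), which overlaps MARS and MBD6 on the other strand and AC022506.1 and MIR616 on its own, codes for CHOP, a bZIP factor that links prolonged stress to cell death. Its stronger probe, DDIT3_16736, gave 269.5, 272 and 203 normalized counts after siCtrl and 326, 381 and 282 after siASAP1 in BT549 cells. In SUM149PT cells the values were 140.2, 148 and 104 after siCtrl and 585, 563 and 568 after siASAP1. In both lines every siASAP1 library was higher, by a narrow margin in BT549 and by a wide one in SUM149PT cells. In Hs578T cells the probe gave 365, 1364 and 221 after siCtrl and 485, 715 and 493 after siASAP1, so that siCtrl held both the highest and the lowest library. The Log2 FC was 2.14 (SE 0.39) in SUM149PT cells, with an unadjusted p of 0.00061 and an adjusted p of 0.27 in limma. It was 0.41 (SE 0.38) in BT549 and 0.21 (SE 0.57) in Hs578T cells.

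Some settings moved DDIT3_16736 across the threshold. In SUM149PT cells its adjusted p was 0.049 without the library labelled siCtrl replicate 2 (Log2 FC 2.23) and 0.023 when all 18 libraries shared a single estimate of the spread. Over the 18 libraries its Log2 FC was 0.92 (SE 0.33, adjusted p = 0.16), and it was 1.19 with an adjusted p of 0.021 without Hs578T siCtrl replicate 2. The difference of the DDIT3_16736 effect between cell lines had an unadjusted p of 0.019 and an adjusted p of 0.63 in limma. In Hs578T cells the value was -0.35 without siCtrl replicate 3 and 0.97 without siCtrl replicate 2.

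The second DDIT3 probe, DDIT3_1800, was sparse, with at most 51 reads in a library. In Hs578T cells, where it could be tested, it gave 4.22, 41.6 and 21.7 normalized counts after siCtrl and 28.3, 27.2 and 7.46 after siASAP1. In SUM149PT cells it gave 1.43, 0 and 14.4 after siCtrl and 0, 5.13 and 0 after siASAP1, and in BT549 cells between 0 and 34.7. The wide gap of DDIT3_16736 in SUM149PT cells was thus not seen with this probe, whose libraries at 0 allow up to 3 reads each, a limit for counting error only. Its Log2 FC over 18 libraries was -0.22 (SE 0.70), and leaving out BT549 siASAP1 replicate 1 or SUM149PT siCtrl replicate 3 gave 0.11 or 0.14.

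ATF3 (chromosome 1, 212565334 to 212620777, plus strand), a stress-induced bZIP repressor, was close to the detection limit. It gave 9.98, 0 and 3.51 normalized counts in BT549 siCtrl and 0, 0 and 4.56 in BT549 siASAP1 libraries. The Hs578T libraries held 2.53, 22.0 and 6.90 after siCtrl and 1.13, 9.25 and 0 after siASAP1. In SUM149PT cells a single library, siASAP1 replicate 3, held reads of ATF3, at 9.20 normalized counts. No difference was detectable at this depth.

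PPP1R15A (chromosome 19, 48872392 to 48876057, plus strand) codes for GADD34, the stress-induced subunit that directs a phosphatase to eIF2 and so closes the feedback loop. In BT549 cells the PPP1R15A probe gave 269.5, 514 and 411 normalized counts after siCtrl and 734, 1128 and 2599 after siASAP1. In SUM149PT cells the values were 531, 277 and 961 after siCtrl and 1003, 1336 and 1099 after siASAP1. All siASAP1 libraries were above all siCtrl libraries in these 2 lines. In Hs578T libraries the probe gave 494, 1069.7 and 1672 after siCtrl and 798, 949 and 1373 after siASAP1, and the groups overlapped. The Log2 FC of PPP1R15A was 1.74 (SE 0.50, adjusted p = 0.49 in limma) for BT549, 0.08 (SE 0.43) for Hs578T and 1.13 (SE 0.50, adjusted p = 0.50) for SUM149PT cells. Without BT549 siASAP1 replicate 1, the value in BT549 cells was 2.15 with an adjusted p of 0.037. In Hs578T cells it was -0.40 without siCtrl replicate 1 and -0.14 without siASAP1 replicate 3.

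TRIB3 (chromosome 20, 362835 to 397559, plus strand) codes for a pseudokinase that binds ATF4 and AKT. Its probe held 6 reads in the 18 libraries together, with 4 of them in BT549 siCtrl replicate 1, and 15 libraries held none. A library without a read allows up to 3 reads, which correspond to between 1.73 and 4.80 normalized counts depending on the library. No difference of TRIB3 between siASAP1 and siCtrl was detectable at this depth.

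DDIT4 (chromosome 10, 72273920 to 72276036, plus strand, overlapped by DDIT4-AS1), which codes for REDD1, and SESN2 (chromosome 1, 28259527 to 28282491, plus strand) both restrain the growth kinase mTORC1. In BT549 cells the DDIT4 probe gave 56.2, 119 and 120.0 normalized counts after siCtrl and 26.7, 51.9 and 119.5 after siASAP1. In Hs578T cells it gave 11.8, 8.98 and 2.96 after siCtrl and 53.3, 4.63 and 13.9 after siASAP1, and in SUM149PT cells 109, 150.3 and 36.8 after siCtrl and 243, 223 and 124 after siASAP1. The groups overlapped in each line. The Log2 FC of DDIT4 was -0.74 (SE 0.62) for BT549, 1.06 (SE 1.06) for Hs578T and 1.15 (SE 0.64) for SUM149PT cells, and without the library labelled SUM149PT siCtrl replicate 2 the last was 1.56 (adjusted p = 0.16 in limma). SESN2 held at most 9 reads in a library and none in 11 of the 18 libraries, so no comparison was possible at this depth.

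ASNS (chromosome 7, 97852118 to 97872542, minus strand, with 4 annotated pseudogenes) codes for asparagine synthetase, the classic amino acid response gene. In BT549 cells its probe gave 48.7, 21.4 and 16.1 normalized counts after siCtrl and 2.67, 11.3 and 0 after siASAP1. Every siASAP1 library was lower than every siCtrl library, at between 0 and 39 reads. Hs578T libraries gave 278, 803 and 56.2 after siCtrl and 45.3, 293 and 34.1 after siASAP1, spread widely within both groups. SUM149PT cells gave 14.3, 85.6 and 22.4 after siCtrl and 30.4, 21.8 and 47.3 after siASAP1, with the library labelled siCtrl replicate 2 the highest. The Log2 FC of ASNS, on the log2(normalized count + 1) scale, was -2.91 (SE 1.17, unadjusted p = 0.031, adjusted p = 0.61 in limma) for BT549, -1.58 (SE 0.99) for Hs578T and 0.05 (SE 0.83) in SUM149PT cells. In BT549 cells its unadjusted p was no longer under 0.05 when siCtrl replicate 1, 2 or 3 or siASAP1 replicate 3 was left out (-2.46, -3.03, -3.23 and -1.99). In Hs578T cells it was under 0.05 without siCtrl replicate 3 (-2.60) or siASAP1 replicate 2 (-2.54), and in SUM149PT cells it was -0.47, -0.16 and -0.23 without siCtrl replicate 1, siCtrl replicate 3 or siASAP1 replicate 3.

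CHAC1 (chromosome 15, 40952962 to 40956519, plus strand) codes for a γ-glutamylcyclotransferase that breaks down glutathione. In BT549 cells the CHAC1 probe gave 89.8, 32.7 and 53.3 normalized counts after siCtrl and 16.9, 38.7 and 28.3 after siASAP1. The values for Hs578T cells were 32.1, 242 and 52.2 after siCtrl and 75.9, 103 and 100.2 after siASAP1, and in SUM149PT cells 40.0, 4.56 and 35.2 after siCtrl and 39.7, 76.9 and 73.6 after siASAP1. The extremes were again siCtrl replicate 2 of Hs578T, the highest, and the library labelled siCtrl replicate 2 of SUM149PT, the lowest. The Log2 FC of CHAC1 was near -1 (fold 0.50, SE 0.61) for BT549, 0.31 (SE 0.66) for Hs578T and 1.61 (SE 0.90) for SUM149PT cells. Without Hs578T siCtrl replicate 2 it was 1.15 in that line, and without Hs578T siCtrl replicate 1 it was -0.29. In SUM149PT cells it was 0.68 without the library labelled siCtrl replicate 2. The difference between cell lines had an unadjusted p of 0.095 in limma.

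**Figure D1:**
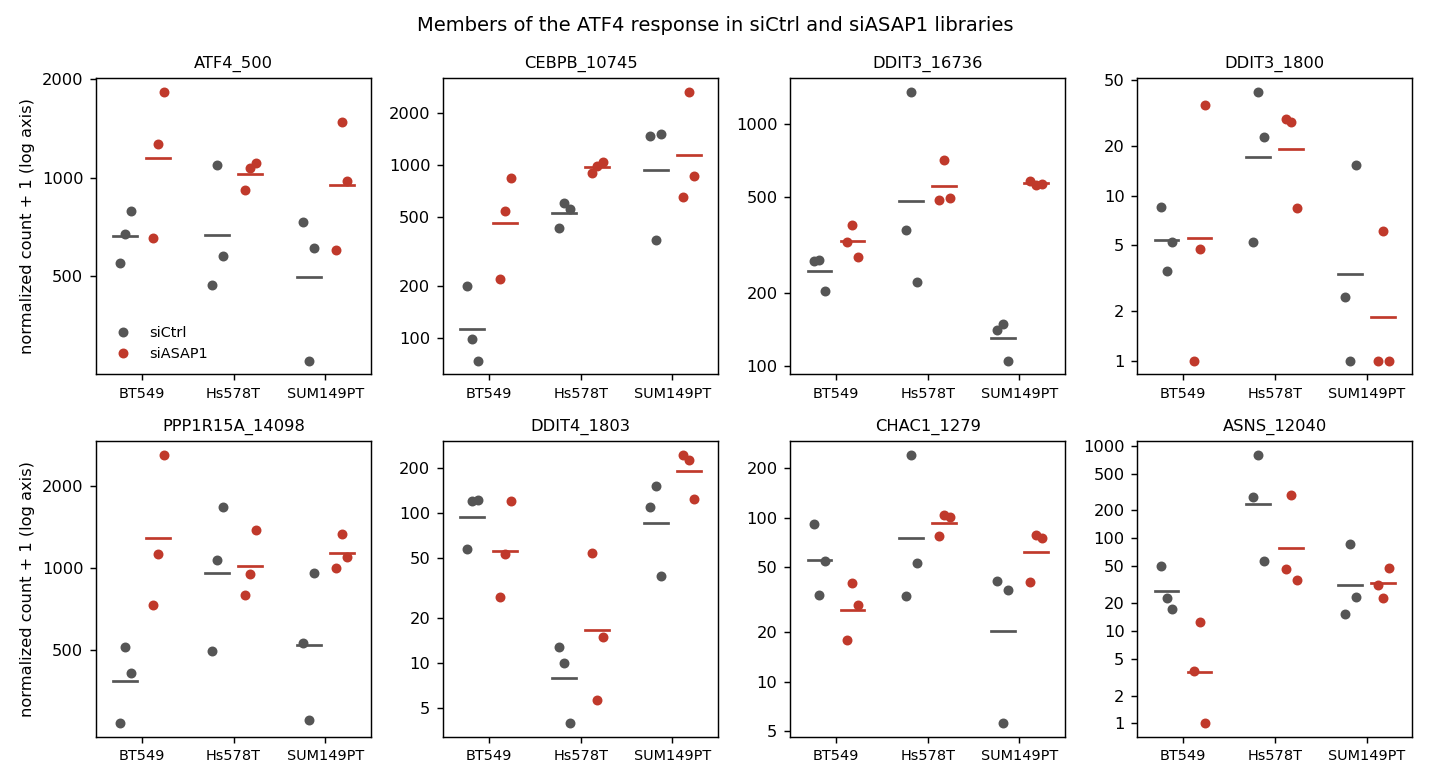
Normalized count plus 1 (log axis) of the 8 member probes tested over 18 libraries, by cell line, with siCtrl in grey and siASAP1 in red. Points are libraries and lines are means on the log scale. DDIT3_16736 in SUM149PT cells separates at 104 to 148 against 563 to 585 normalized counts, and ASNS spreads from 34.1 to 803 in Hs578T cells.

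The study's limits for a differentially expressed gene, a Log2 FC above 1 or below -1 with a p under 0.05 before adjustment, were counted next. In BT549 cells 3 of 7 member probes met them, where 6.97% of all probes tested did. CEBPB and PPP1R15A were higher (background 3.28%) and ASNS was lower (background 3.69%). In Hs578T cells 0 of 8 met them (background 2.78%), and CEBPB alone had an unadjusted p under 0.05, at 0.0066 in limma. In SUM149PT cells DDIT3_16736 was the 1 of 7 that met them (background 9.56%). With each library left out in turn, BT549 cells gave 2 to 4 such members, Hs578T cells 0 to 1 and SUM149PT cells 1 to 2. The counts over all probes moved too, with 22.5% of probes beside the 4 members in BT549 cells without siASAP1 replicate 1, and 23.4% beside 2 members in SUM149PT cells without the library labelled siCtrl replicate 2. The other fits with more members had 3.31% to 6.67% in Hs578T cells and 5.87% in SUM149PT cells without siCtrl replicate 3. The libraries that moved them were the ones named under ASNS and CHAC1 above, BT549 siASAP1 replicate 1 (ATF4 met the limits without it, at 1.19), the library labelled SUM149PT siCtrl replicate 2 (DDIT4) and SUM149PT siCtrl replicate 3 (PPP1R15A, at 1.57).

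By separation of the libraries, 4 of 7 member probes did not overlap between siASAP1 and siCtrl in BT549 cells (background 13.9%), of which 3 were higher (background 7.35%) and 1 was lower (background 6.51%). The count was 1 of 8 in Hs578T (background 12.1%) and 2 of 7 in SUM149PT cells (background 17.3%). For 3 libraries against 3, a single probe cannot go below an exact two-sided permutation p of 0.1, which each of these probes reached. The median Log2 FC of the tested member probes was 0.41 for BT549, 0.26 for Hs578T and 1.13 for SUM149PT cells, beside medians of -0.0015, 0.01 and 0.09 over all probes tested. In SUM149PT cells the Log2 FC was above 0 for each of the 7 tested probes (background 53.5%), with ASNS close to 0. Without the library labelled SUM149PT siCtrl replicate 2, 6 of 7 were above 0 (background 53.1%), with CEBPB at -0.39, and the median of the members was 0.68 beside 0.11 over all probes. The values were then 0.51 for ATF4, 0.67 for PPP1R15A, 2.23 for DDIT3_16736, 1.56 for DDIT4, 0.68 for CHAC1 and 0.78 for ASNS. In the same 5 libraries 3 of 7 members did not overlap (DDIT3_16736, DDIT4 and PPP1R15A), beside 44.8% of all probes. No member had an adjusted p under 0.05 in limma in any line, as was the case for all probes, of which 754, 502 and 1025 had an unadjusted p under 0.05. With voom weights on the recovered reads, members again gave 0, and all probes 8, 0 and 0.

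**Figure D2:**
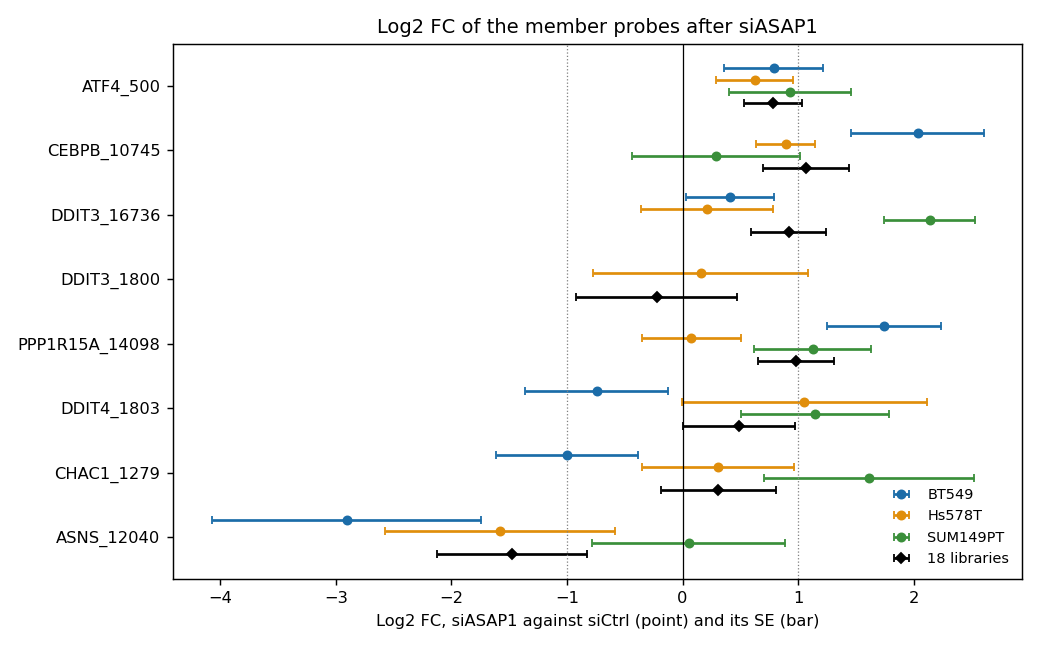
Log2 FC of the 8 member probes after siASAP1 against siCtrl in each cell line (circles) and over the 18 libraries (black diamonds), with the SE as bars. Dotted lines mark -1 and 1, and DDIT3_1800 has values only for Hs578T and the 18 libraries. ATF4 lies between 0.62 and 0.93 in the 3 lines, whereas each of the other 6 probes tested in every line spreads over more than 1 unit.

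Markers of cell state were read in the same libraries. In SUM149PT cells the summed level of 9 mesenchymal marker probes (VIM, CDH2, FN1, ZEB1 and SPARC) was between 5712 and 7078 normalized counts after siCtrl, or 6519 and 7078 without the library labelled siCtrl replicate 2, and between 9893 and 11847 after siASAP1. Of these probes, the 3 of FN1 and that of CDH2 had higher means after siASAP1, VIM_18185 (2622 against 929) and SPARC_24939 had lower means, and VIM_7657, SPARC_6699 and ZEB1 were at 0. In BT549 cells the sum was between 57093 and 58759 after siCtrl and between 60528 and 110093 after siASAP1. There VIM_18185 went from a mean of 32100 to 61919 and VIM_7657 from 12.1 to 17.8, both with overlap of the libraries. The FN1 and CDH2 probes were higher, and SPARC_24939 (12704 to 6998) and SPARC_6699 (764 to 225) were lower, each without overlap. ZEB1 was at 0. In Hs578T cells the sums overlapped, at 155626 to 265204 after siCtrl and 151614 to 200357 after siASAP1. FN1_27231 was the 1 probe of the list with an adjusted p under 0.05 over the 18 libraries (1.04, SE 0.26, adjusted p = 0.048, background 1.74%). The call was lost with 15 of the 18 libraries left out in turn. It was also lost with no filter (adjusted p = 0.076 in limma), a pseudocount of 0.1 (0.058), voom weights (0.062) and the replicate number as a block (0.16). The other FN1 probes, FN1_13666 and FN1_2459, had adjusted p-values of 0.056 and 0.11 in limma. For FN1_27231 the difference of the effect between cell lines had an unadjusted p of 9.5e-05 (adjusted p = 0.083) in limma. Epithelial markers went both ways in SUM149PT cells, with KRT17 (1365 to 3818) and CDH1 (98.7 to 234) higher and KRT8 (12813 to 8830) lower without overlap, and EPCAM (29532 to 20698) lower with overlap. Their sum was between 31563 and 57105 after siCtrl, or 45280 and 57105 without the library labelled siCtrl replicate 2, and between 29999 and 37188 after siASAP1. Subtype receptor probes in SUM149PT cells summed to between 69.2 and 150.3 after siCtrl and between 165 and 280.5 after siASAP1, with 4 of the 6 probes at 0. The part of these markers in the values of CEBPB, PPP1R15A and DDIT3 was not tested. In bulk lysates, a change in the RNA of each cell and a change in the make-up of the cells cannot be told apart.

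When the 18 libraries were fitted together with a term for the line, 0 of 8 member probes had an adjusted p under 0.05 (background 1.74%). At an unadjusted p under 0.05 there were 5 (background 15.8%), 4 of them higher (background 7.68%) and 1 lower (background 8.17%), and 6 of 8 had a Log2 FC above 0 (background 51.7%). ATF4, PPP1R15A, CEBPB and DDIT3_16736 were higher, with Log2 FC of 0.78, 0.98, 1.07 and 0.92 and adjusted p-values between 0.12 and 0.16 in limma. ASNS was lower at -1.48 (SE 0.65, adjusted p = 0.27). DDIT4 gave 0.49 (SE 0.49) and CHAC1 0.31 (SE 0.50), and CHAC1 was -0.05 without the library labelled SUM149PT siCtrl replicate 2. Without that library the 4 probes that were higher had Log2 FC of 0.65, 0.84, 0.93 and 0.86, in the same order, with adjusted p-values between 0.17 and 0.22 in limma. Without BT549 siASAP1 replicate 1 and the library labelled SUM149PT siCtrl replicate 2 together, a setting added after the data were seen, the members again gave 0 calls, with ATF4 at 0.76 and an adjusted p of 0.10.

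Whether the effect differed between cell lines was tested by the interaction. None of 8 member probes had an adjusted p under 0.05 (1 of 10475 probes did, a background of 0.00955%), and DDIT3_16736 was the 1 with an unadjusted p under 0.05 (background 6.22%). With both libraries left out as above, the CEBPB interaction had an adjusted p of 0.061, PPP1R15A 0.12 and DDIT3_16736 0.14. Interaction calls over all probes also rose in that setting, as given below, so this shift was not particular to the members.

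**Figure D3:**
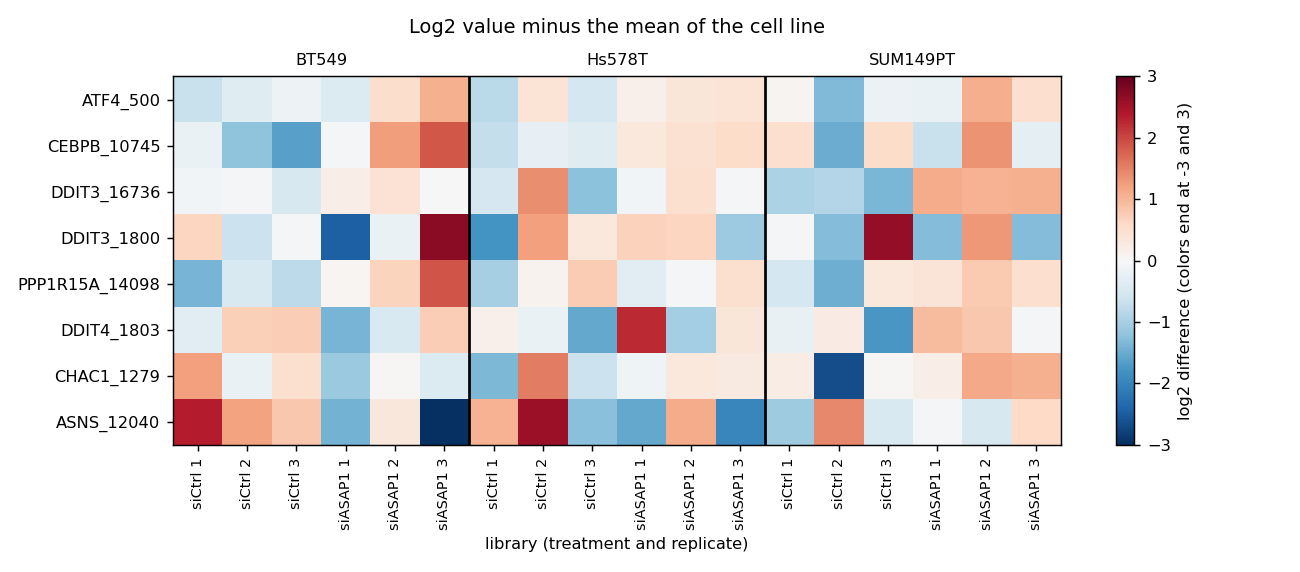
Log2 value of each member probe minus its mean over the 6 libraries of the cell line, for the 18 libraries (columns), in blue below and red above the mean, with colors ending at -3 and 3. DDIT3_16736 turns from blue in the 3 siCtrl to red in the 3 siASAP1 libraries of SUM149PT, and Hs578T siCtrl replicate 2 is red for both DDIT3 probes, CHAC1 and ASNS.

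The levels without silencing were compared between the lines over the 9 siCtrl libraries. CEBPB was lowest in BT549 cells (123 ± 66.4, SD, n = 3), followed by Hs578T (531 ± 86.6) and SUM149PT cells (1119 ± 653), in normalized counts. The difference of Hs578T from BT549 cells was 2.22 on the log2 scale (SE 0.59, adjusted p = 0.032 in limma) and that of SUM149PT from BT549 cells 3.05 (SE 0.59, adjusted p = 0.0047). SUM149PT and Hs578T cells did not differ beyond their spread (0.83, SE 0.59, adjusted p = 0.36), although without the library labelled SUM149PT siCtrl replicate 2 the difference was 1.51 with an adjusted p of 0.022. The difference of Hs578T from BT549 cells lost its call, with an adjusted p between 0.077 and 0.14, when BT549 siCtrl replicate 2 or 3 or any of the 3 Hs578T siCtrl libraries was left out.

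DDIT4 was lowest in Hs578T cells, at 7.91 ± 4.52 normalized counts (SD, n = 3), against 98.3 ± 36.5 in BT549 and 98.6 ± 57.4 in SUM149PT cells. The difference of Hs578T from BT549 cells was -3.56 on the log2 scale (SE 0.72, adjusted p = 0.0078), and that of SUM149PT from Hs578T cells was 3.43 (adjusted p = 0.0070), and both calls held with each library left out. The Hs578T level was near the detection limit, with 3 reads in siCtrl replicate 3 (2.96 normalized counts). Its mean there was below the limit of 10, which applied to the mean over the 9 siCtrl libraries. BT549 and SUM149PT cells did not differ beyond their spread. DDIT3_16736 was lower in SUM149PT than in Hs578T cells (-1.88, SE 0.59), with an adjusted p just under 0.05 that rose above it in most other settings, and without Hs578T siCtrl replicate 2 the difference was -1.13 (adjusted p = 0.14). In these comparisons 2 of 8 member probes differed between Hs578T and BT549 (background 13.9%), 1 of 8 between SUM149PT and BT549 (background 18.2%) and 2 of 8 between SUM149PT and Hs578T cells (background 20.2%).

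ASNS was highest in Hs578T siCtrl cells, at 379 ± 384 normalized counts, against 28.7 ± 17.5 in BT549 and 40.8 ± 39.1 in SUM149PT cells. The difference from BT549 cells was 3.13 (SE 0.99, adjusted p = 0.067) and that of SUM149PT from Hs578T cells -2.90 (SE 0.99, adjusted p = 0.068). Without Hs578T siCtrl replicate 3 these were 4.15 and -3.91 (adjusted p = 0.018 and 0.016), and without the library labelled SUM149PT siCtrl replicate 2 they were 3.13 and -3.63 (adjusted p = 0.035 and 0.023). ATF4 was at 670 ± 121 in BT549, 713 ± 333 in Hs578T and 540 ± 236 in SUM149PT cells, with no pair of lines apart beyond its spread. PPP1R15A (398 ± 123, 1079 ± 589 and 589 ± 346) and CHAC1 (58.6 ± 28.9, 109 ± 116 and 26.6 ± 19.2, in the same order of lines) gave no adjusted p under 0.05 either.

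Other genes of the pathway were counted by list over the 18 libraries, where an adjusted call is an adjusted p under 0.05 (background 1.74%). Upstream, the 17 probes of eIF2 kinases, eIF2, eIF2B and phosphatase subunits gave 0 adjusted calls and a median Log2 FC of 0.0031. Those with the smallest p were EIF2S1, the subunit of eIF2 that is phosphorylated (-0.62, SE 0.25, adjusted p = 0.23), and EIF2B2, a subunit of its exchange factor (-0.55, SE 0.23, adjusted p = 0.24). Among 9 tested probes of other bZIP partners and regulators of ATF4, MAFG alone passed. MAFG, a small MAF protein that pairs with CNC and other bZIP factors, rose by 1.29 (SE 0.32, adjusted p = 0.042). The call was lost with 13 of the 18 libraries left out in turn (Log2 FC 1.07 to 1.43, adjusted p up to 0.092), among them the library labelled SUM149PT siCtrl replicate 2 (1.15, adjusted p = 0.067). It was also lost with quantile normalization (adjusted p = 0.059 in limma), with no filter (0.065) and with the replicate block (0.099). The mean of MAFG was higher after siASAP1 in each line, at 330 against 83.9 normalized counts in BT549, 201 against 123 in Hs578T and 901 against 372 in SUM149PT cells, or 469 for the latter without the library labelled siCtrl replicate 2. Its libraries overlapped in Hs578T cells and did not in BT549 and SUM149PT cells.

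Among 17 tested probes of other ATF4 targets in amino acid supply, 1 fell and 0 rose at an adjusted p under 0.05 (background 1.74% in either direction). The probe that fell was SLC38A1, a sodium-coupled neutral amino acid transporter, at -1.06 (SE 0.22, adjusted p = 0.015). Its libraries did not overlap in BT549 (mean 251 normalized counts after siCtrl and 109.8 after siASAP1) and Hs578T cells (3119 and 1372), whereas they did in SUM149PT cells (4843 and 2888, or 3580 for the former without the library labelled siCtrl replicate 2). Without that library the Log2 FC of SLC38A1 over the others was -0.98 (adjusted p = 0.025), and with the replicate block the adjusted p was 0.072. The list's median Log2 FC was -0.18, with 6 of the 17 probes above 0 (background 51.7%). Targets in signaling and autophagy (22 tested probes) gave 0 adjusted calls and a median of 0.33. The smallest p-values there were those of GADD45A, a growth arrest gene (1.09, SE 0.35, adjusted p = 0.12), and SQSTM1, an autophagy receptor (1.47, SE 0.48, adjusted p = 0.13). The ATF6 and IRE1 arms of the unfolded protein response (19 tested probes) also gave 0 adjusted calls, with a median of 0.11. DNAJB11, a chaperone of the endoplasmic reticulum, was at -0.58 (SE 0.16, adjusted p = 0.072), with siASAP1 libraries below siCtrl libraries in each line, and SYVN1, a ubiquitin ligase, at 0.61 (SE 0.23, adjusted p = 0.20). The members' own median was 0.63 and that of all probes 0.02.

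**Figure D4:**
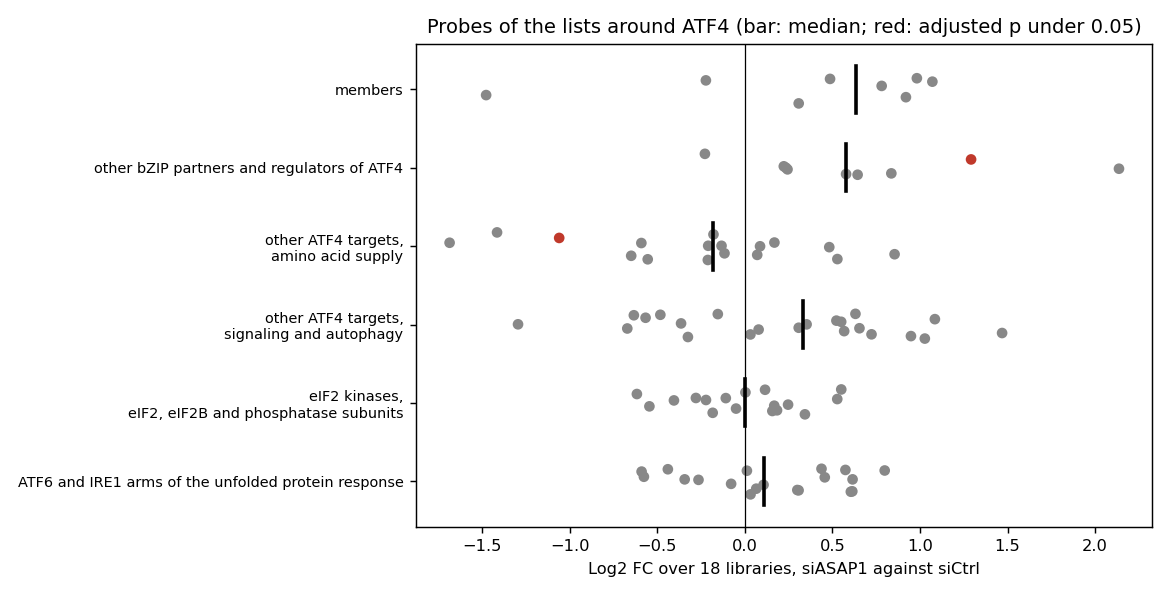
Log2 FC over 18 libraries (horizontal axis) of the tested probes of the members and of 5 lists around ATF4, with the median as a black bar and probes with an adjusted p under 0.05 in red. Members and bZIP partners have medians of 0.63 and 0.58, and the red points are MAFG and SLC38A1.

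Probes with a pattern most like ATF4, DDIT3_16736 and ASNS were sought by the root mean square difference of log2 values over the 18 libraries, each taken from its cell line mean, among 10474 other probes. Nearest to ATF4 were ZSWIM1 (0.30), YARS, the tyrosyl-tRNA synthetase (0.32), and PDXK, pyridoxal kinase (0.33), beside 0.62 for the deviations of ATF4 itself. The nearest other member was PPP1R15A, at rank 465 (0.53). Nearest to DDIT3_16736 were FN1_27231, fibronectin (0.43), RGPD6 (0.44) and FBXO32, a muscle-atrophy ubiquitin ligase subunit (0.45), beside 0.80 for the probe itself, with ATF4 at rank 318 (0.70). Nearest to ASNS were SMIM19 (0.76), FHL1 (0.84) and SC5D, a sterol desaturase (0.87), beside 1.51 for ASNS itself. The nearest other member, DDIT3_16736, was at rank 3004 with a difference of 1.53. This exceeded the deviations of ASNS itself, so no member was close to ASNS in pattern.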

How the data were processed

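The authors assigned sequencing reads to TempO-Seq probes, divided the counts of each library by a DESeq2 size factor, added 1 and deposited log2 values. The submitters' processing notes name bcl2fastq, Bowtie and DESeq2, and the genome build is not given in the sources used here. For 100% of the deposited values, undoing the log2 gave whole reads within 0.02 of a read. The authors tested counts with the Wald test of DESeq2. Here limma 3.58.1 (R 4.3.3) was fitted to the log2 values by lmFit and eBayes with trend, for each cell line, over 18 libraries with a term for the line, with the interaction, and over the 9 siCtrl libraries. A probe entered a fit with a mean normalized count of 10 or more, and p-values were adjusted by Benjamini-Hochberg over all probes tested. P-values measure the spread between the replicates, except in the fit over 18 libraries with a term for the line. That fit has no interaction term, so its spread also holds differences of the siASAP1 effect between the lines.

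The members and lists were chosen with earlier results of these data known. Besides the members and ASAP1, the text names from each list up to 4 probes in each direction with an adjusted p under 0.05 over 18 libraries or, where none passed, the 2 with the smallest p, and the 3 probes nearest to ATF4, DDIT3 and ASNS. Alternatives were library totals, quantile normalization, no filter, a minimum of 50, a pseudocount of 0.1, voom weights on recovered reads, summed probes of a symbol, all 18 libraries in a single fit, the replicate number as a block and each replicate left out. The fits were tested on simulated data. Gene positions came from GENCODE release 29 (GRCh38), promoters from RefSeq (GRCh38.p14). Python 3.11.15 with matplotlib 3.10.9 drew the figures.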

Additional observations from a re-analysis of the deposited data

How the results depend on the processing

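Over all comparisons but the interaction, 444 of 463 member values under other settings kept their direction and their side of the threshold, and 435 of 491 did with libraries left out. Of the others, 8 and 13 passed a threshold they had missed, 7 and 16 missed one they had passed, and 4 and 27 changed sign. The threshold was the study's limits for siASAP1 within a cell line and an adjusted p under 0.05 in the other fits. The adjusted calls of CEBPB, PPP1R15A and DDIT3_16736 within a line were therefore not counted as crossings. Scaling by library totals moved the median Log2 FC of all probes from 0.01 to 0.12 in Hs578T, from 0.09 to 0.30 in SUM149PT, from 0.02 to 0.15 over 18 libraries and, between siCtrl lines, from -0.01 to -0.21 for Hs578T and from -0.04 to -0.20 for SUM149PT against BT549. It changed the split of calls from 127 higher and 137 lower to 198 and 87 in Hs578T, from 531 and 432 to 761 and 267 in SUM149PT, and from 71 and 111 to 122 and 80 over 18 libraries. It raised the members called to 1 in Hs578T (CEBPB, Log2 FC 1.01), beside 285 of 9507 probes tested. In SUM149PT it raised them to 2 (PPP1R15A, 1.34), beside 1028 of 10104 probes. It also turned ATF4 in siCtrl Hs578T against BT549 to -0.19. Quantile normalization turned ASNS in SUM149PT to -0.22 and DDIT3_1800 in siCtrl SUM149PT against BT549 to 0.33, and voom turned ASNS in SUM149PT to -0.17. ASNS in BT549 no longer met the limits with a pseudocount of 0.1 (-4.13) or voom (-3.21). Without a filter, members called in SUM149PT were 2, beside 1125 of 14939 probes. With all 18 libraries in a single fit they were also 2, beside 14.8% of probes. In siCtrl SUM149PT against Hs578T, 1 member was called with library totals, no filter, a minimum of 50, a pseudocount of 0.1 or voom, since DDIT3_16736 lay at the threshold.

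Of all probes, 430 met the limits in Hs578T with no filter and 142 with a minimum of 50, 1551 did in SUM149PT in the single fit, and 111 were called over 18 libraries with no filter. The interaction was called for 2 probes after quantile normalization, with a minimum of 50 or with voom, for 19 with no filter, for 22 with a pseudocount of 0.1 and for 276 without BT549 siASAP1 replicate 1 and the library labelled SUM149PT siCtrl replicate 2.

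Same-numbered replicates deviated together, at a correlation over 0.1, for 1 BT549 pair, 2 Hs578T pairs and 0 SUM149PT pairs out of 3 each, with correlations of deviations between -0.35 and 0.11 in BT549, 0.099 and 0.35 in Hs578T and -0.65 and -0.32 in SUM149PT, so the numbers were not taken as pairs. With the replicate block, the limits were met by 591 probes for BT549, 435 for Hs578T and 351 for SUM149PT, with 34 calls over 18 libraries and 0 for the interaction, and by 1 member in Hs578T (ASNS, adjusted p = 0.083). Adjusted calls in Hs578T went from 0 to 37 of 9500 probes, none of them a member.

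With each library left out in turn, calls ranged from 325 to 2169 in BT549, from 158 to 634 in Hs578T, from 501 to 2325 in SUM149PT, from 99 to 206 over 18 libraries and from 1 to 26 for the interaction. They ranged from 906 to 2264, from 1313 to 3453 and from 1362 to 3200 between siCtrl lines (Hs578T against BT549, SUM149PT against BT549, SUM149PT against Hs578T). Members called ranged from 0 to 1 over 18 libraries and between the lines from 1 to 3, 1 to 1 and 1 to 4. The call over 18 libraries was that of DDIT3_16736 without Hs578T siCtrl replicate 2, beside 162 of 10457 probes (1.55%). Between the lines the share over all probes was not matched to each fit, so the member counts there cannot be read as particular to the members. Signs turned in Hs578T for DDIT3_1800 (-0.70 to 0.81), DDIT3_16736 (-0.35 to 0.97), CHAC1 (-0.29 to 1.15) and PPP1R15A (-0.40 to 0.48). They turned in SUM149PT for ASNS (-0.47 to 0.78) and CEBPB (-0.39 to 0.69), and over 18 libraries for DDIT3_1800 (-0.50 to 0.14) and CHAC1 (-0.052 to 0.55). Between siCtrl lines they turned for Hs578T against BT549 in ATF4 (-0.35 to 0.26) and CHAC1 (-0.39 to 1.05), for SUM149PT against BT549 in ATF4 (-0.69 to 0.013), DDIT3_1800 (-1.79 to 0.19), DDIT4 (-0.55 to 0.46), ASNS (-0.50 to 0.75) and PPP1R15A (-0.0055 to 0.89), and for SUM149PT against Hs578T in ATF4 (-0.70 to 0.0051). The cause of these changes was not tested. Counting limits ATF3, TRIB3 and SESN2, for which most libraries held few or no reads.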

Other observations

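Hs578T siCtrl replicate 2 held the highest value of its line for 4 of 8 member probes (50%), namely both DDIT3 probes, CHAC1 and ASNS, and for 8 of 17 probes of the other ATF4 targets in amino acid supply (47.1%), whereas it was the highest for 22.5% of all 9500 probes tested in that line. Among these targets, named after their values were seen, PHGDH, the first enzyme of serine synthesis, gave 16.0, 59.6 and 17.7 normalized counts in the 3 siCtrl libraries and 18.1, 12.7 and 6.40 in the siASAP1 libraries. PSAT1, the next enzyme of that route, gave 86.9, 138 and 100.5 after siCtrl and 38.5, 91.4 and 6.40 after siASAP1. SLC7A5, a large neutral amino acid transporter, gave 86.1, 382 and 110.3 after siCtrl and 95.2, 174 and 128 after siASAP1. The library held 9104747 reads, and its Pearson r with the mean of the other 2 siCtrl libraries over all probes was 0.937. Such a share was not particular to it. SUM149PT siASAP1 replicate 2 was the highest of its line for 4 of 7 member probes (57.14%), beside 17.97% of all probes tested there. BT549 siCtrl replicate 1 was the highest for 6 of 15 probes in amino acid supply (40%), beside 21.40% of all probes tested there. Whether any of these shares exceeded chance was not tested.

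Over the 18 libraries, PHGDH (Log2 FC -1.69, SE 0.65) and PSAT1 (-1.42, SE 0.61) were lower after siASAP1 at an unadjusted p under 0.05, as was ASNS, with adjusted p-values of 0.20 and 0.26 in limma. SLC3A2, which pairs with SLC7A5 and SLC7A11, was higher at such a p (0.85, SE 0.38, adjusted p = 0.28). Of the 17 probes tested in amino acid supply, 4 were lower and 1 was higher at an unadjusted p under 0.05, beside 8.17% lower and 7.68% higher of all probes. PHGDH gave 24.96, 10.69 and 9.12 normalized counts after siCtrl and 8.89, 3.78 and 0 after siASAP1 in BT549 cells. In SUM149PT cells it gave 24.31, 2.73 and 14.39 against 0, 24.36 and 0, with overlap. PSAT1 gave 91.09, 51.56 and 44.9 against 51.56, 32.1 and 24.64 in BT549 cells. In SUM149PT cells it gave 30.03, 28.24 and 44.76 against 37.04, 0 and 35.48, also with overlap. How far the libraries at 0 set the Log2 FC of both genes was not tested. SLC7A11, the cystine transporter, gave 24.3, 83.8 and 32.0 normalized counts in SUM149PT siCtrl and 120.4, 131 and 149.8 in SUM149PT siASAP1 libraries, with no overlap. In Hs578T cells its values were 93.7, 119 and 54.2 after siCtrl and 322, 126 and 218 after siASAP1, again without overlap, and in BT549 cells 48.7, 13.2 and 18.2 after siCtrl and 19.6, 26.4 and 0 after siASAP1, which overlapped. These genes were likewise named after their values were seen.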
